A study of Mus musculus with 8 samples.

Results

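The genes described here encode the proteins of the mitochondrial ribosome, the Mrps genes of its small subunit and the Mrpl genes of its large subunit. They were chosen by symbol, Mrps or Mrpl followed by a digit, with pseudogenes left out. This rule uses no measured value, but it was set with earlier results of these data known. Of 78 such genes in the RefSeq gene table, 71 had a probe set named for that gene alone, 28 Mrps and 43 Mrpl genes out of 22180 genes in all. The other 7, which are Mrps6, Mrpl30, Mrpl33, Mrpl41, Mrpl43, Mrpl44 and Mrpl53, were not analysed here. The 71 genes lie on 17 chromosomes, none of them X or Y.

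The mitochondrial ribosome is built from RNAs of the mitochondrial genome and from proteins that are all encoded in the nucleus, made in the cytosol and imported. It translates a small set of membrane proteins of the respiratory chain and the ATP synthase. Many of its proteins descend from bacterial ribosomal proteins, and others are found only in mitochondria. In the embryonic kidney, as in other growing tissues, dividing cells have to make mitochondria for each daughter cell.

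RNA of whole mouse kidneys from E14.5 (E, embryonic day) was read on 1-colour arrays. In the Grb2_cKO group (4 embryos, labelled Grb2 UB-cKO) Grb2 had been knocked out in the ureteric bud, and the controls (4 embryos) were labelled wild-type. All embryos came from 1 litter, both kidneys of an embryo made 1 sample, and no source used here gives the Cre driver or the alleles of the controls. GRB2 is an adaptor that couples receptor tyrosine kinases such as RET to RAS and ERK signalling, and the comparison asks what its loss from the ureteric epithelium changes in the kidney's RNA.

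Values are log2 probe-set values as the authors deposited them, and a log2 fold change is the Grb2_cKO mean minus the control mean. A gene was called when its adjusted p in limma, over all 22180 genes, was below 0.05. Grb2 was 8.61 to 8.68 in the controls and 8.06 to 8.36 in Grb2_cKO, a log2 fold change of -0.45 (SE 0.07, adjusted p = 0.0017). Kidney markers were present: the mean over 11 nephron progenitor markers was 10.1 to 10.3 in controls, and that over 8 adrenal and gonad markers was 5.59 to 5.66. Sex was unevenly spread over the groups. Averaged over Eif2s3y, Kdm5d and Uty, which lie on the Y chromosome, the level was 9.94 to 10.1 in Grb2_cKO and 4.09 to 4.24 in control replicates 1, 2 and 4, while control replicate 3 stood at 9.94. Sex and genotype are thus largely aligned, and models that take sex into account are given further on. In RNA of a whole organ, fewer cells of a type and less RNA per cell cannot be told apart.

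Mitochondrial ribosomal protein genes were lower in Grb2_cKO kidneys as a family, by small amounts. Of the 71 genes, 31 fell, 0 rose and 40 did not pass, where 14.3% of all genes were called lower and 13.7% higher. The median log2 fold change was -0.20 over the 71 genes and 0.0058 over all genes. The log2 fold change was below 0 for 54 of the 71 genes, against 49.0% of all genes. In all 31 called genes the 4 Grb2_cKO values lay below the 4 control values. The groups were also apart, with Grb2_cKO lower, in 3 genes that did not pass, which makes 34 of 71 beside 16.0% of all genes. With each array centred on its median, which moved the calls over all genes to 18.4% lower and 10.8% higher, 39 members were lower and 0 higher. With dim genes left out, all 71 members stayed in the test, and 35 were lower and 0 higher. Of the genes tested there, 20.5% were lower and 19.8% higher, larger shares than over all genes.

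The changes were modest in size. The 31 called genes had log2 fold changes from -0.67 to -0.27, and 8 of them were at least 1.5-fold lower. The 40 genes that did not pass ran from -0.43 to 0.52, with 23 below 0 and 17 above.

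**Figure D1:**
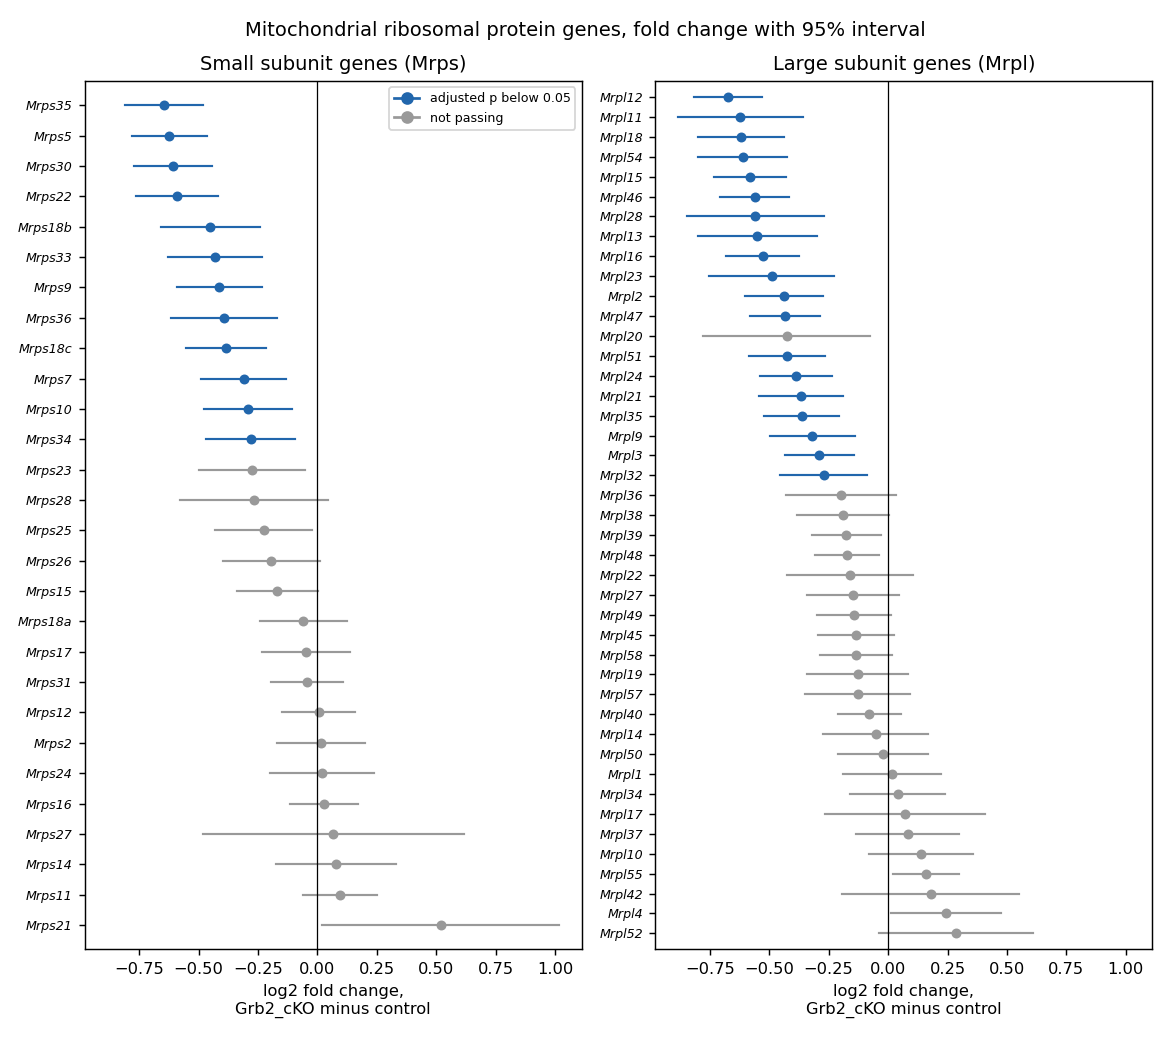
Log2 fold change (Grb2_cKO minus control, horizontal axis) of 28 small subunit and 43 large subunit genes, 1 per row, with the 95% interval of the limma model and n = 4 embryos per group. Blue points are the 31 genes with an adjusted p below 0.05, all left of 0, and grey points are the 40 that did not pass.

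Since many members fell together, their promoters were read from the RefSeq promoter table (GRCm38.p6), 250 bases before to 50 after each gene's start. The table held 68 windows for 62 of the 71 genes. Motifs were searched on both strands, without regard to overlaps between motifs. They were those of factors tied to nuclear genes of mitochondria: NRF1 (GCGCA and GCGC with 1 base of any kind between them), ETS factors such as GABP (CCGGAAG), YY1 (AAGATGGC) and the E-box of MYC and USF (CACGTG). Of 68 windows 23 held the ETS letters (33.8%, beside 8.86% of 32851 windows of the table), 12 the YY1 letters (17.6%, beside 2.75%), 11 the NRF1 letters (16.2%, beside 4.6%) and 7 the E-box (10.3%, beside 7.15%). Among windows of genes that fell and of genes that did not pass, the ETS letters stood in 8 of 28 and 15 of 40, the YY1 letters in 3 of 28 and 9 of 40, the NRF1 letters in 4 of 28 and 7 of 40, and the E-box in 4 of 28 and 3 of 40. A gene with several starts entered with several windows. The E-box windows of genes that fell belonged to Mrpl2, whose windows overlap and repeat 1 promoter, and to Mrps18c. Mrpl48 and Mrps16, which did not pass, also entered with several windows. The 28 windows came from 26 genes that fell and the 40 from 36 genes that did not pass. Shares by window are therefore not shares of genes for any of the motifs. These matches are descriptions of letters and not binding sites.

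The following windows are shown because they set genes that fell beside genes that did not, with motif letters in capitals and each written 5′ to 3′ on the gene's strand. Mrpl12 (chr11:120484387-120484686, + strand) and Mrpl10 (chr11:97041332-97041631, + strand) encode stalk proteins. Mrpl18 (chr17:12916042-12916341, - strand) and Mrps12 (chr7:28741772-28742071, - strand) both hold the ETS letters. Mrps5 (chr2:127587176-127587475, + strand) fell most among small subunit genes with a window.
Mrpl12: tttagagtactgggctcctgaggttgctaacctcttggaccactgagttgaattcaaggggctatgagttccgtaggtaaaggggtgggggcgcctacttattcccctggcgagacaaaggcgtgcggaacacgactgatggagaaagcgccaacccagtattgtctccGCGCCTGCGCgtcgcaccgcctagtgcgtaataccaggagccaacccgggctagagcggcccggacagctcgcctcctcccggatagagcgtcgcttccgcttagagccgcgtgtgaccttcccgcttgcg
Mrpl10: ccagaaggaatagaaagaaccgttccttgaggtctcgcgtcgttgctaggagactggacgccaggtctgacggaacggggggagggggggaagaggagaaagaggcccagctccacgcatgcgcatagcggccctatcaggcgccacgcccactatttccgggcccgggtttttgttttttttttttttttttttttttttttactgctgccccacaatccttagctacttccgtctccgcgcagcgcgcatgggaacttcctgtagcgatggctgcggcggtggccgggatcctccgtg
Mrpl18: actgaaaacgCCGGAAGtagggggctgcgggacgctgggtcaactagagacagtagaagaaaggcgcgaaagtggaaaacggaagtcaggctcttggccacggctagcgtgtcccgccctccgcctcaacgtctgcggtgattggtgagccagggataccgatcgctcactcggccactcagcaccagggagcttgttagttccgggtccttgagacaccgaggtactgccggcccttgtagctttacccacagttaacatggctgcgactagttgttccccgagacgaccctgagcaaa
Mrps12: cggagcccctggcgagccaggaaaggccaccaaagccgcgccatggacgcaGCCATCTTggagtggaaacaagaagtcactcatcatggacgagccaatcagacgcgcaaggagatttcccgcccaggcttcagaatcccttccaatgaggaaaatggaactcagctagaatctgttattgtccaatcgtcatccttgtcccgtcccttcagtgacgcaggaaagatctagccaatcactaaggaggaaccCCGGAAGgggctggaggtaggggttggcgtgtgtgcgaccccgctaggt
Mrps5: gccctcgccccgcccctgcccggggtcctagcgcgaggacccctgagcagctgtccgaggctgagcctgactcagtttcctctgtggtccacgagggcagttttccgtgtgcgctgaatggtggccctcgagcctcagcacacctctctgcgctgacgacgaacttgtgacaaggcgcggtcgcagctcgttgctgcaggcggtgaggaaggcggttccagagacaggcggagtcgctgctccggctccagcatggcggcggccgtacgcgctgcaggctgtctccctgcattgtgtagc
Mrpl12 holds an NRF1 match, read on the opposite strand, that starts at position -81 from the gene start, and Mrpl10 holds none of the 4 motifs. Mrpl18 holds the ETS letters at -240. Mrps12, which did not pass, holds them at 2 and the YY1 letters, read on the opposite strand, at -199. Mrps5, which fell, holds none. These windows show motif letters both in genes that fell and in a gene that did not pass.

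The largest fall was in Mrpl12, whose protein forms the flexible stalk of the large subunit that receives translation factors and which also binds the mitochondrial RNA polymerase. Mrpl12 was 8.82, 8.96, 8.83 and 8.82 in control replicates 1 to 4 and 8.21, 8.20, 8.14 and 8.19 in Grb2_cKO replicates 1 to 4. The embryos of a group lay close together and the groups were far apart. The log2 fold change was -0.67 (SE 0.06, adjusted p = 0.000122), which leaves 62.7% of the control level (95% interval 56.8% to 69.2%). A dimmer probe set of Mrpl12, not used in the fit, differed by -0.32 between the group means.

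The neighbours of MRPL12 at the stalk did not move alike. Mrpl11, which encodes the protein at the stalk base, was 8.29, 8.45, 8.68 and 8.82 in the controls and 8.03, 7.77, 7.99 and 7.99 in Grb2_cKO. The controls were spread over 0.53, more than the 0.26 of the Grb2_cKO embryos, and the groups did not overlap. Mrpl11 fell by 0.62 (SE 0.12, adjusted p = 0.0033). Mrpl10, whose protein anchors the stalk, was 10.42, 10.72, 10.82 and 10.85 in controls and 10.87, 10.86, 10.78 and 10.85 in Grb2_cKO. On this probe set its groups overlapped, with control replicate 1 below all other embryos. Its log2 fold change was 0.14 (SE 0.10, 95% interval -0.08 to 0.36, adjusted p = 0.351). On the dimmer probe set of Mrpl10, left out of the fit, the group means differed by 0.21. There the lowest Grb2_cKO value, 6.92, exceeded the highest control value, 6.84, so the groups were apart.

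Among the other large subunit genes, 5 descend from bacterial ribosomal proteins and stood among the 12 largest falls. Mrpl18 ran from 8.25 to 8.56 in the controls and from 7.73 to 7.89 in Grb2_cKO, a fall of 0.62 (SE 0.08, adjusted p = 0.000517). Mrpl15 fell by 0.58 (SE 0.07), Mrpl28 by 0.56 (SE 0.13) and Mrpl13 by 0.55 (SE 0.11). The remaining one is Mrpl11, described above. Mrpl3, for a protein near the catalytic centre of the large subunit, fell by 0.29 (SE 0.07, adjusted p = 0.0081), with controls at 9.97 to 10.13 and Grb2_cKO at 9.71 to 9.80. Of the proteins found only in mitochondria, Mrpl54 fell by 0.61 (SE 0.08) and Mrpl46 by 0.56 (SE 0.06). Mrpl58, a peptidyl-tRNA hydrolase built into the large subunit, stood at -0.13 (SE 0.07, adjusted p = 0.178).

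In the small subunit the largest falls were in Mrps35 and Mrps5. Mrps35, a protein of mitochondrial ribosomes alone, was 8.86, 8.82, 8.67 and 8.65 in controls and 8.15, 8.06, 8.16 and 8.05 in Grb2_cKO. Its log2 fold change was -0.65 (SE 0.07, adjusted p = 0.000275). Mrps5, the homologue of bacterial protein S5, was 9.71, 9.65, 9.75 and 9.84 in controls and 9.20, 9.11, 9.11 and 9.02 in Grb2_cKO. Every Grb2_cKO embryo was below every control for both genes. Mrps5 fell by 0.62 (SE 0.07, adjusted p = 0.000264), and its dimmer probe set differed by -0.35. Mrps22, for a mitochondria-specific protein, fell by 0.59 (SE 0.08, adjusted p = 0.000525).

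The small subunit genes Mrps12, Mrps2 and Mrps16 did not pass. Mrps12, the homologue of the bacterial decoding protein S12, was 6.80, 6.76, 6.65 and 6.83 in controls and 6.86, 6.76, 6.73 and 6.71 in Grb2_cKO. The groups were interleaved, with a log2 fold change of 0.0049 (95% interval -0.15 to 0.16, adjusted p = 0.97). Mrps2 stood at 0.02 (interval -0.17 to 0.20, adjusted p = 0.922) and Mrps16 at 0.03 (interval -0.11 to 0.17, adjusted p = 0.805). A dimmer probe set of Mrps16 differed by -0.30, so its probe sets disagree.

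The 3 relatives of bacterial protein S18 were measured separately. MRPS18C takes the place of S18 in the small subunit, MRPS18B sits elsewhere in it, and MRPS18A is a large subunit protein in spite of its name. Mrps18b was 9.11, 9.34, 9.43 and 9.41 in controls and 9.03, 8.80, 8.77 and 8.87 in Grb2_cKO, a fall of 0.45 (SE 0.09, adjusted p = 0.0053). Mrps18c ran from 7.96 to 8.08 in the controls and from 7.54 to 7.81 in Grb2_cKO, a fall of 0.38 (SE 0.07, adjusted p = 0.0039). Both were apart between the groups. Mrps18a was 8.78 to 9.05 and 8.83 to 8.97, overlapping, at -0.06 (interval -0.24 to 0.12, adjusted p = 0.664). The difference between the relatives was not tested.

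**Figure D2:**
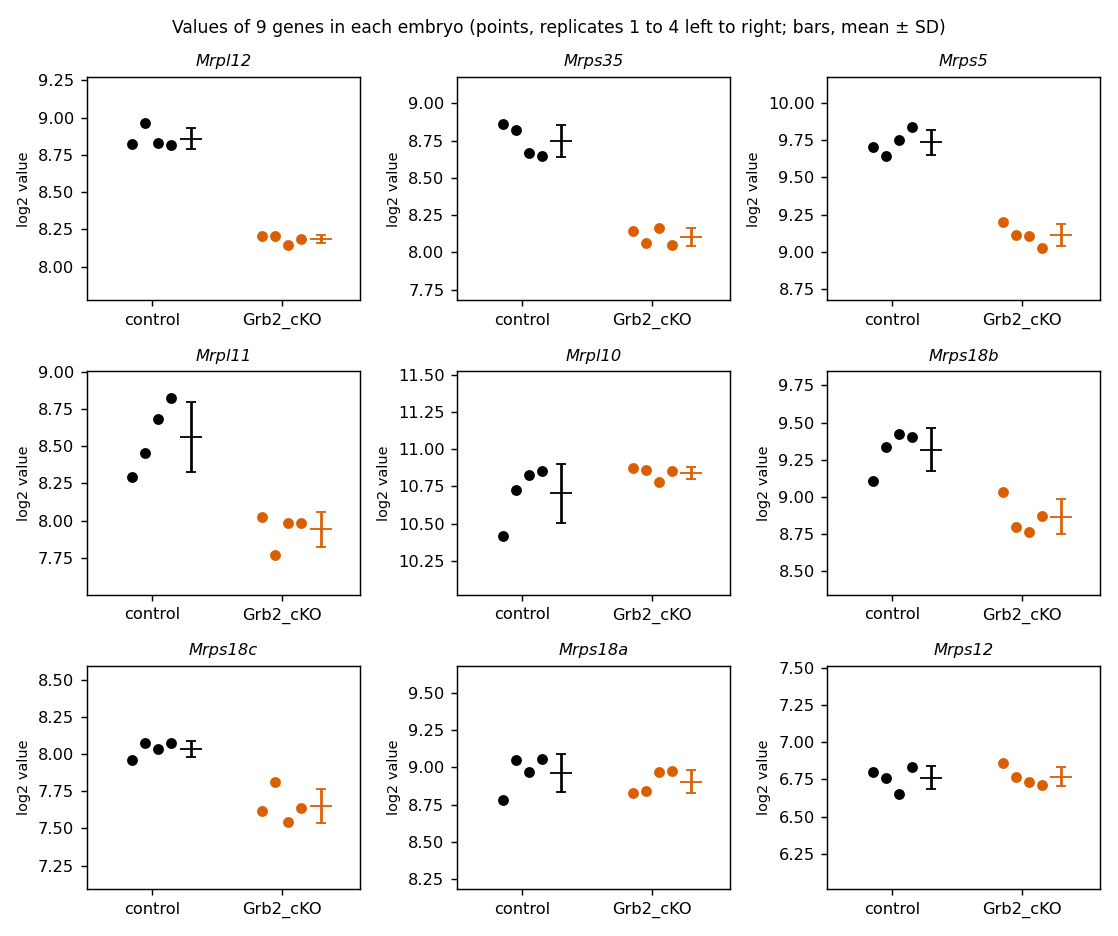
Log2 values (vertical axis, 1.5 log2 units tall in each panel) of 9 genes in 4 control embryos (black) and 4 Grb2_cKO embryos (orange), with the mean ± SD beside each group. The groups are apart for Mrpl12, Mrps35, Mrps5, Mrpl11, Mrps18b and Mrps18c and overlap for Mrpl10, Mrps18a and Mrps12.

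Mrps30 and Mrps36 also carry small subunit names. MRPS30 lies in the large subunit of the mature ribosome, and MRPS36 belongs to the 2-oxoglutarate dehydrogenase complex. Mrps30 ran from 8.89 to 9.05 in the controls and from 8.29 to 8.51 in Grb2_cKO and fell by 0.61 (SE 0.07, adjusted p = 0.000355). Mrps36 ran from 6.47 to 6.85 in the controls and from 6.10 to 6.37 in Grb2_cKO and fell by 0.39 (SE 0.10, adjusted p = 0.0147).

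The members nearest the threshold were Mrps34 and Mrpl32 inside it and Mrpl48, Mrps23, Mrpl39 and Mrpl20 outside it. Mrpl32, whose protein is cut by a mitochondrial protease before it joins the ribosome, ran from 7.92 to 8.23 in the controls and from 7.69 to 7.85 in Grb2_cKO (-0.27, SE 0.08, adjusted p = 0.0324). Mrps34 stood at -0.28 (SE 0.08, adjusted p = 0.0309). Both calls were lost without single embryos: Mrpl32 without control replicate 1, 2 or 4 or Grb2_cKO replicate 1, 2 or 3, and Mrps34 without control replicate 3 or 4 or Grb2_cKO replicate 1, 3 or 4. Their adjusted p-values then ran from 0.0515 to 0.0832. Mrpl20 stood at -0.43 with an adjusted p of 0.0717, since its controls ran from 7.48 to 8.19, and it passed without control replicate 1 (-0.55, adjusted p = 0.0258) or 4 (-0.51, adjusted p = 0.0455). Mrps23 (-0.28, adjusted p = 0.0675) passed without control replicate 1 (-0.36, adjusted p = 0.0139).

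Both subunits held many genes that fell. In the small subunit 12 of 28 genes fell (42.9%), and in the large subunit 19 of 43 fell (44.2%), with 0 higher in either, beside 14.3% of all genes called lower. The median log2 fold change was -0.25 for the small and -0.19 for the large subunit. For each embryo the mean deviation of a subunit's genes from their means over all 8 embryos was taken. Over the small subunit it was 0.03, 0.07, 0.13 and 0.19 in control replicates 1 to 4 and -0.10, -0.12, -0.11 and -0.09 in the Grb2_cKO replicates. Over the large subunit it was 0.0032, 0.11, 0.16 and 0.21 in the controls and -0.12, -0.12, -0.14 and -0.09 in Grb2_cKO. Every Grb2_cKO embryo lay below every control for either subunit. The group means differed by -0.21 for the small and -0.24 for the large subunit. Within an embryo, small minus large was -0.01 ± 0.03 in controls and 0.01 ± 0.02 in Grb2_cKO (SD, n = 4 each), and these values overlapped. With subunits taken by symbol, the groups differed by 0.026. This was just under the SD of the control embryos (0.028) and above that of the Grb2_cKO embryos (0.017). The median fold change was lower for the small subunit and the mean for the large one. Scores over many genes of 1 family were given no test.

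With Mrps30 and Mrps18a moved to the large subunit and Mrps36 left out, 10 of 25 small and 20 of 45 large subunit genes had fallen, with medians of -0.23 and -0.19. Small minus large was then 0.011, -0.058, -0.036 and -0.012 in control replicates 1 to 4 and 0.033, 0.012, 0.036 and 0.014 in Grb2_cKO replicates 1 to 4. By structure the Grb2_cKO values all lay above the controls, narrowly so for control replicate 1 and Grb2_cKO replicate 2. The group means differed by 0.048, against an SD of 0.030 in the controls and 0.012 in Grb2_cKO. By this mean score the large subunit was the lower one by a small amount, while by the medians the small subunit was. Whether the groups overlapped in the score thus depended on where these 3 genes were placed. Which subunit was lower depended on the use of mean or median. The proteins were also divided by origin, with Mrps18a and Mrps18b set apart from the bacterial homologues and Mrps18c counted as the S18 homologue. In the large subunit 16 of 28 genes for bacterial homologues fell (median -0.34), and 4 of 17 others (median -0.13). In the small subunit the order of the medians was the other way, with 5 of 15 (median -0.05) and 5 of 10 (median -0.28). With Mrps18a and Mrps18b counted among the bacterial relatives, a choice added after the data were seen, 16 of 29 and 4 of 16 large subunit genes fell (medians -0.32 and -0.14), and 6 of 16 and 4 of 9 small subunit genes (medians -0.11 and -0.28). These splits are descriptions with no test.

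**Figure D3:**
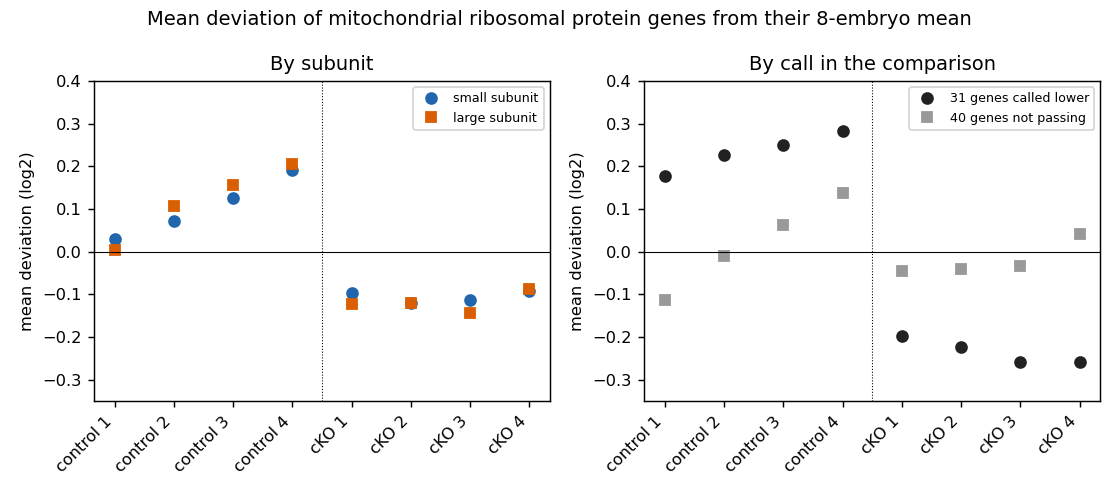
Mean deviation (log2, vertical axis) of a gene group from its genes' means over the 8 embryos, for 4 control and 4 Grb2_cKO embryos (cKO). Left, small and large subunit genes lie side by side in each embryo, above 0 in the controls and below 0 in Grb2_cKO. Right, the 31 called genes differ between groups, which the call fixes, and the 40 others span -0.11 to 0.14 in the controls.

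The controls varied more among themselves than the Grb2_cKO embryos. The range over 4 embryos was larger in the controls for 55 of the 71 genes, against 45.1% of all genes, with a median range of 0.295 in controls and 0.178 in Grb2_cKO. Control replicate 1 was the lowest control in 44 of the 71 genes and control replicate 4 the highest in 43, where these embryos were lowest and highest for 32.0% and 31.6% of all genes. Without control replicate 1 the median over the 71 genes was -0.24, and without control replicate 4 it was -0.20. In each case most of the calls stayed, with 29 of the 31 genes called again.

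The count of lower members was close to 31 whichever embryo was left out, and so was the share of all genes. Without control replicates 1, 2, 3 and 4 in turn, 31, 29, 29 and 30 members were called lower, beside 12.8%, 11.4%, 12.6% and 13.1% of all genes. Without Grb2_cKO replicates 1, 2, 3 and 4 in turn the counts were 29, 30, 28 and 31, beside 12.7%, 13.4%, 11.8% and 12.6%. A member was called higher in just 1 of these 8 fits, that without control replicate 4 (Mrps21), where 13.0% of all genes were higher. In the others 11.5%, 10.7% and 12.2% (control replicates 1 to 3) and 12.7%, 13.4%, 11.1% and 11.5% (Grb2_cKO replicates 1 to 4) of all genes were higher. With dim genes left out, 16635 were tested, all 71 members among them. There 35 members were lower and 0 higher, beside 20.5% lower and 19.8% higher over those genes. At an adjusted p under 0.01, 24 members were lower and 0 higher, beside 9.06% and 8.11% of all genes. After quantile normalization 33 were lower, beside 15.0% of all genes, with probe sets averaged 30, beside 14.0%, and with a trended and robust spread 33, beside 15.5%. At an adjusted p under 0.1, 36 were lower and 1 higher, beside 17.4% and 17.3%.

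Sex was looked at in 3 ways. With that Y-chromosome average added as a covariate, 11 of the 31 genes were called lower and 0 of the 71 higher, beside 2.76% of all genes lower and 2.85% higher. The 11 were Mrpl2, Mrpl12, Mrpl15, Mrpl16, Mrpl18, Mrpl23, Mrpl46, Mrpl54, Mrps5, Mrps30 and Mrps35. The median log2 fold change of the 71 genes was then -0.26, and that of the 31 went from -0.44 to -0.49, while their median SE went from 0.0789 to 0.128. Mrpl12 stood at -0.65 (adjusted p = 0.0174) and Mrps5 at -0.64 (adjusted p = 0.0241). Mrpl11 at -0.74 (adjusted p = 0.0586), Mrps22 at -0.53 (0.0505), Mrpl28 at -0.67 (0.102), Mrpl13 at -0.31 (0.31), Mrps18b at -0.56 (0.0651) and Mrps18c at -0.38 (0.118) no longer passed. Nor did Mrpl3 at -0.26 (0.222), Mrps36 at -0.31 (0.33), Mrps34 at -0.45 (0.0726) and Mrpl32 at -0.12 (0.655). Only control replicate 3 matched Grb2_cKO in Y-linked level, so the fold changes of this fit rest almost wholly on that single control. Against it alone Mrpl12 stood at -0.64 and Mrps5 at -0.64, nearly as with the covariate. The same limit holds for every later count with the Y-linked covariate.

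Against control replicate 3 alone, whose Y-linked level matched that of Grb2_cKO, 1 member was called lower, Mrpl18, beside 0.541% of all genes, and the median was -0.26. This fit has a single control that is assumed to vary like the other group. Last, the model was fitted without control replicate 3, which called 29 members lower, beside 12.6% of all genes. The controls left in it were all low in Y-linked level, so this fit cannot tell sex from genotype. The Grb2_cKO embryos and the other controls took part in that choice, so their places are partly fixed by it. Control replicate 3, which took no part in it, lay above all 4 Grb2_cKO embryos in 29 of these 29 genes, beside 95.8% of 2771 other genes called lower that way. On a scale from the other controls (0) to Grb2_cKO (1) it stood at a median of -0.01 (quartiles -0.24 to 0.13) for the members and 0.138 for the other genes. It is a single embryo.

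**Figure D4:**
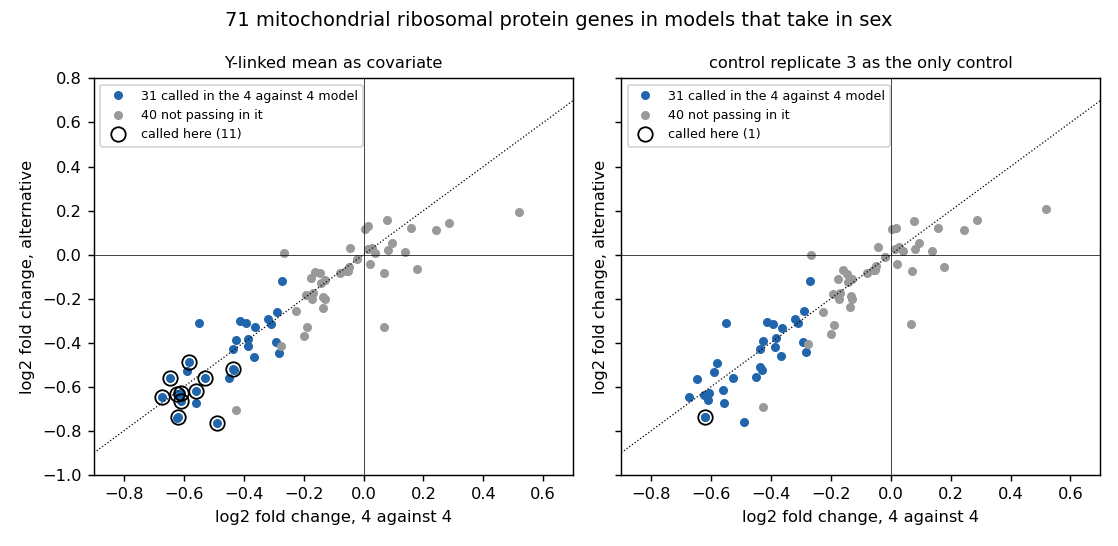
Log2 fold change of the 71 genes in the model of 4 against 4 embryos (horizontal) against that with the Y-linked covariate (left, vertical) or with control replicate 3 as the only control (right, vertical). The dotted line marks equal values, and open circles mark the 11 and 1 genes called there. The 31 genes called with all embryos (blue) lie below 0 in both panels. The panels are not independent, since both rest on control replicate 3, the only control with a high Y-linked level.

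Markers of other cell types and of proliferation moved with the result. The counts below stand beside 14.3% of all genes called lower and 13.7% higher. Of 18 measured proliferation genes 17 fell, with an average of 11.2 to 11.3 (controls) against 10.6 to 10.8 (Grb2_cKO). Of 7 measured erythroid markers 5 rose, with a mean of 6.35 to 6.89 against 7.24 to 7.86. Of 12 macrophage markers 9 rose (7.21 to 7.39 against 7.98 to 8.39), and of 10 stroma markers 9 rose (10.6 to 10.8 against 11.2 to 11.4). Of 5 measured podocyte markers 5 rose (8.75 to 8.95 against 9.22 to 10.0), and of 10 endothelial markers 7 rose (9.75 to 9.87 against 10.1 to 10.3). Of 15 ureteric epithelium markers 11 fell (9.09 to 9.24 against 8.13 to 8.40), and of 11 nephron progenitor markers 8 fell and 1 rose (10.1 to 10.3 against 9.19 to 9.69). The part of these shifts in the lower mitochondrial ribosomal values was not tested. With the erythroid mean as a covariate 3 members were called lower, Mrpl28, Mrps18b and Mrps30, beside 0.582% of all genes, and the median of the 71 genes was -0.36. The median log2 fold change of the 31 called genes went from -0.44 to -0.62, and their median SE from 0.0789 to 0.173. The erythroid mean did not overlap between the groups, so this fit cannot tell erythroid content from genotype.

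In each of the 4 related lists some genes fell, and in the lists of assembly and translation factors most did not pass. For comparison with these lists, 14.3% of all genes were called lower and 13.7% higher. With the Y-linked covariate these shares were 2.76% and 2.85%. Of 5 ribosomal proteins with other names, 3 were measured and all 3 fell. Ptcd3, for an RNA-binding protein of the small subunit, ran from 10.23 to 10.35 in the controls and from 9.68 to 9.77 in Grb2_cKO and fell by 0.57 (SE 0.06, adjusted p = 0.000235). Gadd45gip1, of the large subunit, fell by 0.32 (SE 0.06), and Dap3, a GTP-binding protein of the small subunit, fell by 0.26 (SE 0.07). In the model that takes Y-linked genes into account 1 of the 3 was called, Ptcd3 at -0.60.

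Of 26 genes that assemble the ribosome or modify its RNA, 9 fell (34.6%), 1 rose and 16 did not pass (median -0.13). Fastkd2, for an RNA-binding protein of the mitochondrial matrix, ran from 7.94 to 8.24 in the controls and from 7.13 to 7.48 in Grb2_cKO and fell by 0.74 (SE 0.09, adjusted p = 0.000463). Noa1, a GTPase needed for the small subunit, fell by 0.66 (SE 0.07), Mrm3, a methyltransferase of the large ribosomal RNA, by 0.44 (SE 0.09), and Gtpbp10, a GTPase of large subunit assembly, by 0.41 (SE 0.07). The member that rose, named after its values were seen, was Mpv17l2, a large subunit assembly gene, at 0.50 (SE 0.14, adjusted p = 0.0235). With the Y-linked covariate 2 were called lower and 1 higher, and Fastkd2 at -0.60 (adjusted p = 0.0518) and Gtpbp10 at -0.30 (0.162) did not pass.

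Of 14 measured translation factors 5 fell and 9 did not pass (median -0.19). Gfm1, the elongation factor that moves the ribosome along, ran from 8.57 to 8.73 in the controls and from 7.88 to 8.07 in Grb2_cKO and fell by 0.66 (SE 0.07, adjusted p = 0.000203). Lrpprc, which stabilizes mitochondrial mRNAs, fell by 0.57 (SE 0.07), Gfm2, which recycles ribosomes, by 0.37 (SE 0.08), and Tsfm, an elongation factor, by 0.28 (SE 0.08). Its call was lost without control replicate 2 (adjusted p = 0.0641) or Grb2_cKO replicate 1 (0.0544) or 2 (0.0504). In the model with the Y-linked covariate 1 was called, Gfm1 at -0.58.

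Of 16 genes of mitochondrial DNA upkeep and transcription 9 fell, 2 rose and 5 did not pass (median -0.28). The share that fell was 56.2%, beside 14.3% of all genes. The share that rose, 12.5%, was near the 13.7% of all genes. Twnk, the helicase of mitochondrial DNA, fell by 0.55 (SE 0.09), Pprc1, a coactivator of mitochondrial genes, by 0.45 (SE 0.07), Gabpb1, a subunit of the factor GABP, by 0.38 (SE 0.07), and Tefm, a transcription elongation factor, by 0.37 (SE 0.07). The 2 that rose, named after their values were seen, were Ppargc1a at 0.59 (SE 0.12, adjusted p = 0.0046), a coactivator of mitochondrial biogenesis, and Polg2 at 0.31 (SE 0.07, adjusted p = 0.0092), a subunit of the mitochondrial DNA polymerase. With the Y-linked covariate 1 was called lower and 0 higher in limma, Twnk at -0.71.

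Other large families also held many lower genes. Of 67 cytosolic ribosomal protein genes 32 fell and 1 rose (median -0.25), and of 79 nuclear oxidative phosphorylation subunit genes 33 fell and 4 rose (median -0.12). The shares that fell were 47.8% and 41.8%, beside 14.3% of all genes, and those that rose 1.49% and 5.06%, beside 13.7%. With the Y-linked covariate 8 of the cytosolic and 6 of the oxidative phosphorylation genes were called lower, beside 2.76% of all genes. No test of a difference between the families was made.

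**Figure D5:**
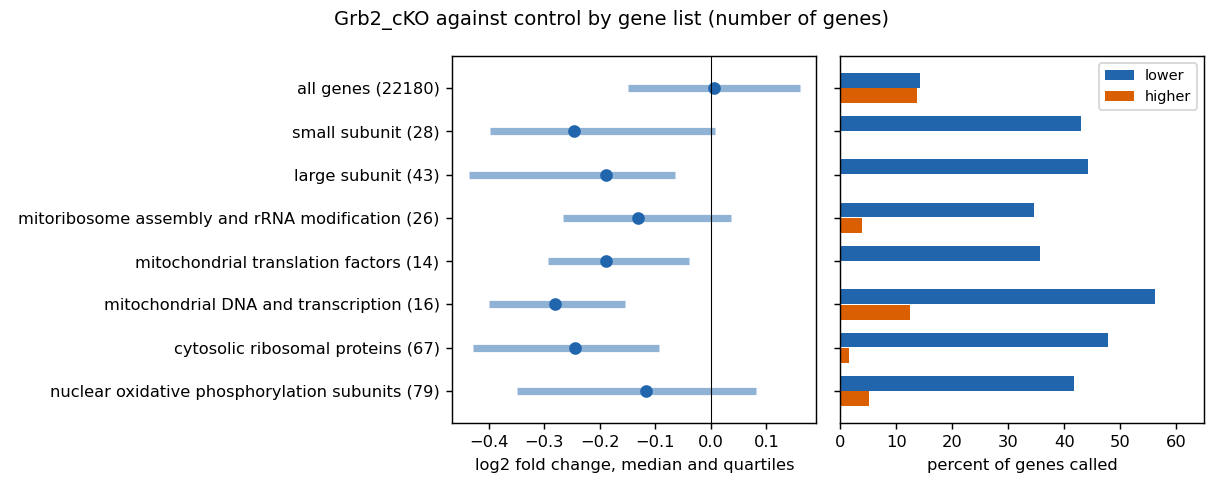
Gene lists with the number of genes measured in brackets: median (point) and quartiles (bar) of the log2 fold change, left, and percent of genes called lower (blue) and higher (orange), right. All genes have a median near 0 and about equal calls each way, and each other list has a median below 0, with 42.9% of small and 44.2% of large subunit genes called lower.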

How the data were processed

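Both kidneys of each of 8 mouse embryos were pooled, and 200 ng of total RNA was amplified and hybridised to 1-colour arrays, per the labels' protocols. The authors deposited log2 probe-set values, made with the Transcriptome Analysis Console per the submitters' processing notes. No source used here gives the background correction, normalization or genome build. That the scale is log2 was read from the values (1.25 to 14.08, array medians 6.61 to 6.72). No depth exists for arrays, whose number limits the precision, and no batch record was used here.

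Of 41345 probe sets 23521 had 1 symbol, 1814 several and 16010 none. Symbols were updated through Entrez identifiers (23328) to the GRCm38.p6 RefSeq table, and the probe set of highest mean over 8 arrays stood for each of 22180 genes. Groups were compared in limma 3.58.1 (R 4.3.3), with Benjamini-Hochberg adjustment over all genes and a threshold of 0.05, after a check on simulated arrays. The replicates are separate embryos of 1 litter.

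Members and lists were chosen with earlier results of these data known. Named members were the 12 largest falls among called genes, the 6 nearest the threshold and a panel. The rule also took the 12 largest rises among called genes, but no member was called higher. Mrpl41 and Mrpl44 of the panel were not analysed here. Of each related list, 4 genes of smallest p were named. From the cytosolic ribosomal and oxidative phosphorylation symbols, kinases, binding proteins and assembly factors were left out by name. Mrpl40, Mrpl55, Mrpl2, Mrpl16, Mrpl23, Mrps10, Mrps21 and Mrps27 were named after their values were seen. Alternatives were quantile normalization, median centring, leaving out dim genes, the mean of probe sets, a trended and robust spread, covariates for Y-linked and erythroid genes, 1 control, other thresholds, structural subunits and leaving out each embryo.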

Additional observations from a re-analysis of the deposited data

Results flagged for a closer look

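In a group of 4 embryos, a highest or lowest value was singled out when its gap to the next was a larger share of the group's range than Dixon's 95% critical value. Of 96 groups looked at, 4 held such a value, and chance gives about 1 in 20. Control replicate 2 had the highest Mrpl12 value of its group, 8.962, with the other controls at 8.818 to 8.83. Grb2_cKO replicate 2 had the lowest Mrpl11 value, 7.767, with the others at 7.987 to 8.026. Grb2_cKO replicate 1 had the highest Mrpl28 value, 8.156, with the others at 7.776 to 7.796, and lay just under the lowest control (8.19). Control replicate 4 had the highest Gadd45gip1 value, 8.57, with the others at 8.447 to 8.465.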

How the results depend on the processing

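The count of 31 lower members was 33 after quantile normalization, 35 with dim genes left out, 30 with probe sets of a gene averaged, 33 with a trended and robust spread, 24 at an adjusted p under 0.01 and 36 at one under 0.1. It was 39 with arrays centred on their medians, where the subunit medians were -0.31 and -0.26, since centring moved the median of all genes to -0.06. It was 11 with the Y-linked covariate, 3 with the erythroid covariate (large subunit median -0.37, small minus large 0.057) and 1 with control replicate 3 as the only control. Of the 31 genes, 31 kept their sign in each of these fits. With subunits taken by structure, small minus large was 0.048 in place of 0.03, and the groups no longer overlapped. The count of higher members was 0 except at an adjusted p under 0.1 (1, Mrpl55). Leaving out each embryo in turn gave 28 to 31 lower and 0 to 1 higher members (Mrps21, at 0.70 without control replicate 4), subunit medians of -0.27 to -0.21 (small) and -0.25 to -0.17 (large), and 0.02 to 0.04 for small minus large. Of the 31 calls 28 stayed in all 8 such fits, and Mrpl32, Mrps34 and Mrps10 did not. Mrps10 (-0.29, adjusted p = 0.0237) was lost without control replicate 1, 2 or 3 or Grb2_cKO replicate 3. Grb2 stood at -0.40 with the Y-linked covariate, -0.55 with the erythroid covariate and -0.41 against control replicate 3, none past the threshold (adjusted p = 0.10, 0.165 and 0.164), and at -0.50 to -0.40 without single embryos. No named gene that was called changed its sign. The cause of these differences was not tested. No paired analysis was possible because the replicate numbers follow the order of the records and pair nothing.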

Other observations

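Some members differed more within the controls than between the groups. Mrps27, a small subunit gene, was 8.32, 8.43, 9.27 and 9.52 in control replicates 1 to 4 and 8.82 to 9.12 in Grb2_cKO. Mrps21, the homologue of bacterial protein S21, was 6.83, 6.88, 7.59 and 7.83 in the controls and 7.50 to 8.01 in Grb2_cKO (0.52, adjusted p = 0.118). For both genes control replicates 1 and 2 lay below the other controls. In all, 10 members had a control range over 0.5 on the log2 scale, and 3 had such a range in Grb2_cKO.

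Of the members that did not pass, Mrpl55 was the only one whose Grb2_cKO values all lay above the controls on the probe set used. They were 8.76 to 8.87 against 8.59 to 8.69 (0.16, SE 0.06, adjusted p = 0.0874). It is the 1 member of 71 with groups apart in this direction, beside 15.2% of all genes. Mrpl40 was apart the other way by a small step, at 8.11 to 8.19 against 8.21 to 8.24.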
